A study of Mus musculus with 360 samples.

Results

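Hba-a1 and Hba-a2 are the duplicated mouse genes of adult alpha globin, and their transcripts were followed here in lung, heart, kidney, liver and ovary. Every probe that carries the name of either gene was taken, which gave 3 probes of 3154 and 2 genes of 2756. The genes were singled out because an earlier analysis of these same counts placed them among the large falls in liver and kidney at 250 ppm 1,2-dichlorobenzene, so those 2 comparisons are described with values and no test. Lung, heart and ovary at 250 ppm were tested, but they come from the same animals, and their values were not new when the tests were set.

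The animals were female B6D2F1/Crl mice, first-generation offspring of C57BL/6 and DBA/2 parents, 9 weeks old, with tissue taken on study day 5. One series of 37 animals received 1,2-dichlorobenzene (1,2-DCB) at 0, 1, 10, 30, 100 or 250 ppm, and another of 35 animals received 1,4-dichlorobenzene (1,4-DCB) at 0, 1, 10, 50, 150 or 400 ppm. The isomers carry their chlorines on neighbouring carbons of the ring or on opposite ones, and the 0 ppm animals of each series were its controls. RNA was measured by TempO-Seq, which counts pairs of detector oligonucleotides joined on their target RNA, with the mouse S1500+ panel.

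Alpha globin pairs with beta globin to form the haemoglobin tetramer, which carries oxygen by its haem groups. The genes are transcribed at very high rates in maturing erythroid cells, and the young red cells that enter the blood, the reticulocytes, still carry globin mRNA although they have lost their nucleus. In a solid organ this RNA is usually carried by the blood inside it, while the endothelium of small arteries is also known to make some alpha globin. In such bulk samples fewer red cells and less globin RNA per red cell cannot be told apart.

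In the GRCm38 annotation both genes lie on chromosome 11 on the plus strand, Hba-a1 at chr11:32283511-32284465 and Hba-a2 at chr11:32296489-32297298, with 3 exons each. The 426 coding bases of the reference transcripts differ at 1 base, C381T counted from the first coding base with Hba-a1 first, which leaves the encoded protein the same. The stretch around that base, coding bases 366 to 396, is printed to show how little separates the genes, with the differing base in capitals.
Hba-a1: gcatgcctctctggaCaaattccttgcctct
Hba-a2: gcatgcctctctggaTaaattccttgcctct
The first 77 bases after the stop codon were identical too. A detector pair placed in such sequence would meet RNA of both genes, so the gene name of a probe is kept here as a label, and no value is assigned to 1 gene alone.

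The genes also share their promoters. The RefSeq promoter windows, 250 bases before to 50 after each start, held 297 identical bases in a row of 300 when shifted by 3 bases. The 247 bases before the annotated start of Hba-a2 (GRCm38.p6, chr11:32296242-32296488, plus strand) are printed because the abundant alpha globin probes were both lower in each of the 5 tissues at 250 ppm 1,2-DCB. Capitals mark the 4 motifs searched for.
Hba-a2: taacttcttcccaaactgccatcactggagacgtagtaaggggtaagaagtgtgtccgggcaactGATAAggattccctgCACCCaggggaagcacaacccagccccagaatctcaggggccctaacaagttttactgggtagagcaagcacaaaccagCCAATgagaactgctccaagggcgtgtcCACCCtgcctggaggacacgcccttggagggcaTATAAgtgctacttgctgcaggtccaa
GATAA, the core of the motif bound by GATA factors, began 182 bases before the start, CACCC, the core bound by factors of the KLF family, 167 and 60 bases before, CCAAT 88 and TATAA 27 bases before. Both strands were searched, and no motif overlapped another. Of 32851 RefSeq promoters, 22.4% held GATAA in the same 247-base window, 51.6% CACCC, 33.6% CCAAT and 22.7% TATAA, and 0.9% held all 4. A match describes these letters and shows no binding. The mice carry a DBA/2 genome as well, which the reference does not represent.

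The analysis used 326 of 360 libraries, those the labels mark as used, with medians of 20.1 M counts in lung, 19.4 M in liver, 12.5 M in kidney, 12.3 M in heart and 5.93 M in ovary. Heart and ovary had 10 control animals per compound and 5 to 7 animals per exposed group, lung 10 and 4 to 6, liver 9 or 7 and 2 to 6, and kidney 5 or 6 and 2 to 6. Of 13 probes for liver, kidney, heart and ovary markers, each had its highest control median in the tissue it marks, and the panel held 0 of the 5 lung markers listed, so the lung label was not checked.

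The probes differed greatly in their counts. Hba-a1_84120 and Hba-a2_29332 had counts in 360 of 360 libraries, with medians of 107797 and 2996. Hba-a1_29333 had a count in 308 libraries, with a median of 14, and it was too low to be tested in ovary. Every deposited value of Hba-a1_84120 was a multiple of 15 and every value of Hba-a2_29332 a multiple of 2. The deposited counts had thus been multiplied for these probes, and 1 read of Hba-a1_84120 counts as 15. Counts of different probes do not compare the amounts of their RNAs.

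Within groups the 2 abundant probes rose and fell with each other. The Pearson correlation of their deviations from group means was 0.93 in lung over 70 libraries, 0.93 in heart, 0.92 in kidney, 0.91 in liver and 0.89 in ovary. Hba-a1_29333 followed Hba-a1_84120 with 0.87 in lung and 0.83 in heart, and with 0.52 in kidney, 0.52 in liver and 0.51 in ovary. Its median in controls was 168 reads in lung, 25.5 in heart, 23 in kidney, 6.5 in liver and 2.5 in ovary. These are descriptions, since the probes share libraries and depth and may share RNA.

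Unexposed tissues differed widely in alpha globin. As counts scaled to a common library size (CPM), Hba-a1_84120 ranged in controls from 40327 to 121029 in lung (median 75900, n = 20), from 10921 to 56094 in heart (18810, n = 20), from 7403 to 15579 in kidney (11590, n = 11), from 1077 to 5871 in liver (2669, n = 16) and from 760 to 6183 in ovary (2312, n = 20). Lung stood above heart in 20 of 20 animals with both libraries, by a median of 3.89-fold, although the ranges overlapped. Heart stood above kidney in 10 of 11 animals, with a median ratio of 1.68 and overlapping ranges. Kidney stood above liver in 9 of 9 animals, by a median of 4.93-fold, and the ranges did not overlap. Liver and ovary were close, with liver higher in 12 of 16 animals and ranges that covered each other. Hba-a2_29332 gave the same order of medians, at 1861, 495, 279, 95.7 and 75.5 CPM. Hba-a1_29333 had medians of 8.57, 2.25, 2.14, 0.342 and 0.327 CPM. Its heart and kidney were close, and its liver and ovary medians, at 6.5 and 2.5 reads, were too low to be ordered. Each tissue was scaled by itself, so these are shares of the counts of each tissue.

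The globins took a large part of some libraries. Hba-a1_84120 made up a median of 7.06% of the deposited counts of a control lung, and with Hbb-bs_84118, the abundant probe of adult beta globin, 35.7%. The same pair made up a median of 8.47% in control heart, 3.80% in kidney, 1.13% in liver and 1.11% in ovary. At 250 ppm 1,2-DCB the pair made up a median of 5.29% in lung and 1.27% in heart. Lung libraries of that group also had smaller totals, with a median of 13.6 M counts against 20.5 M in their controls. These totals include the globin counts as deposited, so they do not measure depth apart from the globins.

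**Figure D1:**
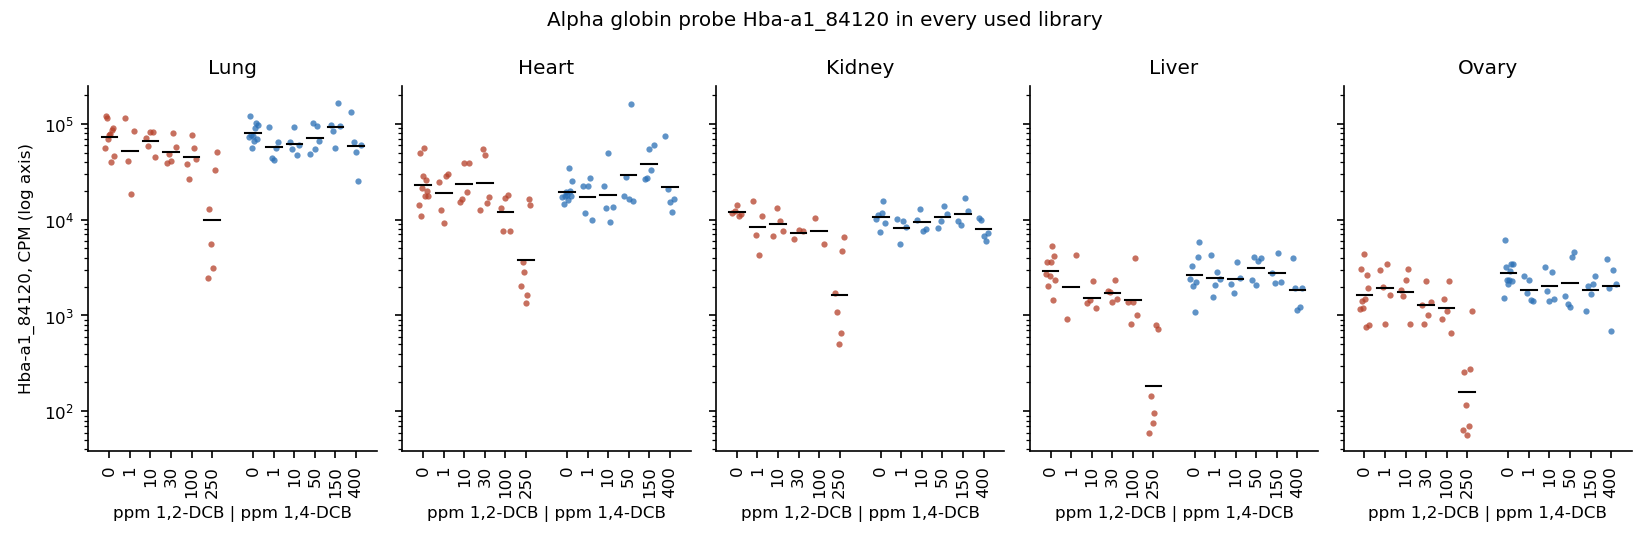
CPM of Hba-a1_84120 on a log axis in each used library, by tissue and by concentration of 1,2-DCB (red) or 1,4-DCB (blue); each point is an animal and each bar the geometric mean. Control medians fall from 75900 CPM in lung to 2312 CPM in ovary, and the 250 ppm 1,2-DCB group lies lowest in each of the 5 tissues.

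At 250 ppm 1,2-DCB alpha globin fell in lung, heart and ovary, 4.35-fold to 7.37-fold by the fitted change, and stood lower in liver and kidney as well. The change is given as the log2 fold change of edgeR's quasi-likelihood fit ± its standard error, and a probe passed at a Benjamini-Hochberg adjusted p under 0.05 over the probes of that contrast. That fit holds 1 estimate of spread per probe for all 12 groups of a tissue. For Hba-a1_84120 in lung the log2 SD was 1.79 among exposed animals and 0.52 among controls. Neither the ± values nor the p-values take up that difference. Fitted changes follow the mean counts of a group, to which its highest animals add most. In lung and heart the third highest exposed animal stood at -2.53 and -2.66 for Hba-a1_84120, against the mean log2 CPM of controls. Both lie below the fitted -2.12 of these tissues, so most exposed animals there fell further than the fit states. In ovary the third highest stood at -2.66, near the fitted -2.76. The genes were chosen for falls in liver and kidney of these same animals. The p-values in lung, heart and ovary are therefore no independent evidence of a fall.

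In lung the 6 animals at 250 ppm had 2464, 3162, 5581, 12795, 32721 and 50984 CPM of Hba-a1_84120, against 40327 to 120010 (median 77178) in 10 controls. 5 of the 6 lay below each control, and the highest lay within their range. The change was -2.12 ± 0.40 (edgeR adjusted p = 2.04e-05). Hba-a2_29332 had 63.2 to 941 CPM, below each of the controls at 1135 to 2438, with a change of -2.38 ± 0.36 (edgeR adjusted p = 1.84e-07). Hba-a1_29333 changed by -2.36 ± 0.45 (edgeR adjusted p = 2.4e-05), with 4 of 6 animals below each control. In this contrast 15% of 2756 probes tested passed as lower and 17.6% as higher, and in 2.07% each exposed animal lay below each control.

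In heart the 7 exposed animals had 1346, 1635, 2015, 2825, 3648, 14372 and 16356 CPM of Hba-a1_84120, against 10921 to 56094 in 10 controls. 5 animals lay below each control and 2 among the lower controls. The change was -2.12 ± 0.48 (edgeR adjusted p = 0.00176). Hba-a2_29332 changed by -2.23 ± 0.42 (edgeR adjusted p = 0.000167), with 6 of 7 animals below each control, and Hba-a1_29333 by -2.88 ± 0.58 (edgeR adjusted p = 0.000406). Of 2454 probes tested in heart, 4.81% passed as lower.

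In ovary the 7 exposed animals had 57, 64.5, 69.9, 117.3, 257, 279 and 1107 CPM of Hba-a1_84120, against 760 to 4397 in 10 controls. 6 of 7 lay below each control, and the other lay among the lower controls. The change was -2.76 ± 0.45 (edgeR adjusted p = 3.82e-05), and that of Hba-a2_29332 was -2.71 ± 0.43 (edgeR adjusted p = 3.82e-05), with 6 of 7 animals below each control. Their log2 ratio, Hba-a2_29332 over Hba-a1_84120, was -4.98 ± 0.36 (SD, n = 10) in controls and -4.29 ± 0.70 (SD, n = 7) at 250 ppm. Animals thus differed in how far each probe fell. Exposed ovaries had medians of 43 reads of Hba-a1_84120 and 22 of Hba-a2_29332, the ranges of the ratio overlapped, and its difference was not tested. Of 2713 probes tested in ovary, 7.7% passed as lower and 8.22% as higher. Hba-a1_29333 had 17 reads in the 10 controls and 8 in the exposed animals, which were all from 1 animal, so its level in ovary was not measurable at this depth.

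Liver and kidney at 250 ppm are the comparisons the genes were chosen from. In liver the 6 exposed animals had 58.8, 75.4, 95.8, 144.5, 726 and 802 CPM of Hba-a1_84120, against 1437 to 5297 in 9 controls, with a fitted change of -3.28 ± 0.47. Hba-a2_29332 had 2.4 to 39.1 CPM against 37.5 to 198, with a change of -3.16 ± 0.53. Hba-a1_29333 had 1 read in 6 exposed livers against 65 in 9 controls, a rate ratio of 0.0199 over pooled reads that takes no account of the spread among animals. In kidney the 6 exposed animals had 506, 655, 1076, 1700, 4696 and 6577 CPM of Hba-a1_84120, against 10899 to 14071 in 5 controls, with a change of -2.26 ± 0.39, and Hba-a2_29332 and Hba-a1_29333 changed by -2.25 ± 0.35 and -3.01 ± 0.63. Each exposed kidney lay below each control for the 3 probes, as for 3.77% of the probes tested there. In these contrasts 24.6% of probes in liver and 4.95% in kidney passed as lower.

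The difference among the exposed animals was as plain as that from the controls. Animal 508 fell least in lung, kidney and ovary and animal 507 least in heart and liver, and these 2 were the highest in each of the 5 tissues. Against the mean log2 CPM of the controls, Hba-a1_84120 in animal 508 stood at -0.53 in lung, -0.68 in heart, -0.88 in kidney, -1.99 in liver and -0.55 in ovary. Animal 507 stood at -1.17, -0.50, -1.36, -1.85 and -2.54 in the same tissues. Animal 503 came next in each of the 5 tissues, from -2.53 in lung to -4.32 in liver, and in ovary it lay close to animal 507.

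Animals 501, 505 and 506R were the lowest. Animal 505 stood at -4.10 in heart, -4.58 in kidney, -5.26 in liver and -4.82 in ovary, and animal 501 at -4.90 in lung, -3.52 in heart, -5.62 in liver and -4.65 in ovary. Animal 506R, with a library in each tissue, ranged from -3.82 in heart to -4.91 in liver. The SD of the log2 values among exposed animals was 1.46 in heart, 1.50 in kidney, 1.55 in ovary, 1.66 in liver and 1.79 in lung, against 0.14 to 0.83 among the controls of these tissues. The deposited totals of the exposed and control livers covered like ranges, 15 to 19.7 M and 14.1 to 20.9 M counts.

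**Figure D2:**
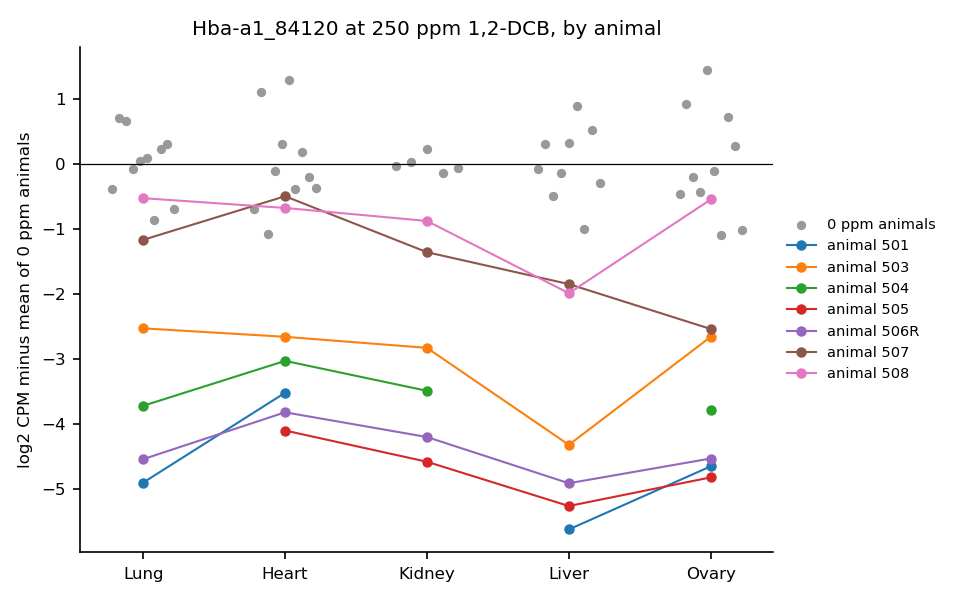
Difference of log2 CPM of Hba-a1_84120 from the mean of the 0 ppm animals of the 1,2-DCB series, by tissue; each coloured line is an animal at 250 ppm, broken where it had no used library, and grey points are control animals. Animals 507 and 508 lie highest in each tissue, and the lowest value is -5.62, in the liver of animal 501.

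A single value per animal, the mean log2 CPM of the abundant probes over lung, heart and ovary, sums this up and is given with no test, since the genes were chosen with these results known. At 250 ppm 1,2-DCB it was 8.44 ± 1.38 (SD, n = 6) against 11.14 ± 0.60 (SD, n = 10) in controls, lower by 2.70 on the log2 scale. 6 of 6 animals lay below the control median and 5 of 6 below each control. At 100 ppm it was 10.40 ± 0.49 (SD, n = 5), a difference of -0.75 with 5 of 5 animals below the control median. The 1, 10 and 30 ppm groups differed from controls by -0.25, -0.09 and -0.31 and the 1,4-DCB groups by -0.34 to 0.15. The SD within these 8 groups was 0.27 to 0.80.

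**Figure D3:**
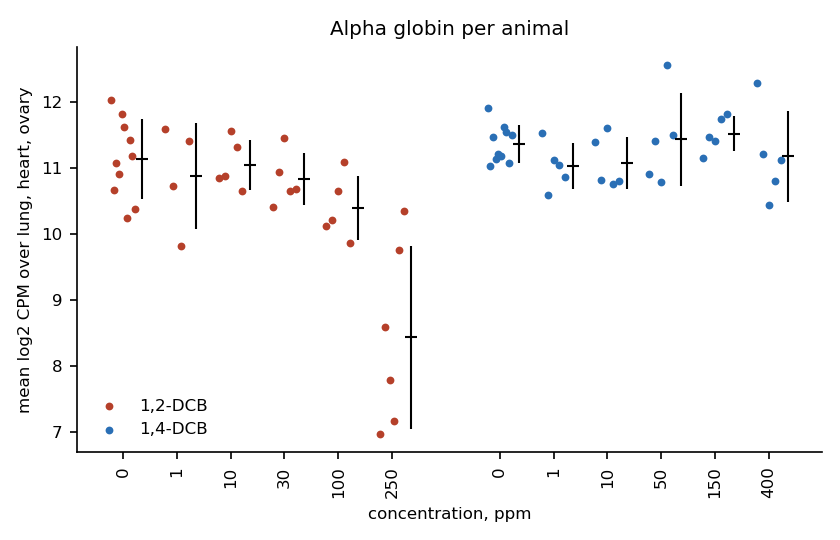
Mean log2 CPM of Hba-a1_84120 and Hba-a2_29332 over lung, heart and ovary in each animal with those 3 libraries, by concentration of 1,2-DCB (red) and 1,4-DCB (blue); bars give the group mean ± SD. The 250 ppm 1,2-DCB group has a mean of 8.44 against 11.14 in its controls, and the other groups have means from 10.40 to 11.53.

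Below 250 ppm no alpha globin probe passed in any tissue. Over the 56 comparisons of a probe with its controls at 1 to 100 ppm 1,2-DCB, which share those controls within a tissue, 50 fitted changes were below 0 and 6 above, with a median of -0.50, the smallest edgeR adjusted p was 0.148, and 4 had an unadjusted p under 0.05. Over these contrasts together 2.67% of all probe tests passed, and 0 to 18.8% in a single one. At 100 ppm Hba-a1_84120 changed by -1.04 ± 0.52 in heart, -0.84 ± 0.45 in liver, -0.70 ± 0.40 in lung, -0.59 ± 0.54 in kidney (2 animals) and -0.55 ± 0.46 in ovary. For Hba-a2_29332 the values were -0.82 ± 0.45, -0.93 ± 0.51, -0.85 ± 0.35, -0.53 ± 0.49 and -0.89 ± 0.43 in the same order. Hba-a1_29333 changed by -1.65 ± 0.58 in heart (edgeR p = 0.0055, adjusted p = 0.272), -0.56 ± 0.81 in liver, -0.65 ± 0.43 in lung and -0.77 ± 0.79 in kidney. The 95% intervals of Hba-a1_84120 at 100 ppm reached down to -2.08 in heart and to -1.46 in ovary, and that of Hba-a1_29333 to -2.80 in heart. Falls of up to those sizes remain possible.

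With 1,4-DCB no alpha globin probe passed at any concentration either. Of 70 such comparisons 42 fitted changes were below 0 and 28 above, with a median of -0.15 and a smallest edgeR adjusted p of 0.0714, and 5 had an unadjusted p under 0.05. Together 3.26% of all probe tests passed in these contrasts, and 0 to 31.6% in a single one. At 400 ppm Hba-a1_84120 changed by -0.55 ± 0.46 in liver, -0.43 ± 0.38 in kidney, -0.35 ± 0.45 in ovary, -0.31 ± 0.39 in lung and 0.48 ± 0.49 in heart. The concentration differs from the 250 ppm of the other isomer, so these values stand beside the falls described above without a comparison.

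Heart was the tissue in which 1,4-DCB values were highest. At 150 ppm its 5 animals had 26594, 27279, 32731, 54114 and 60771 CPM of Hba-a1_84120, against a control median of 17910 (14459 to 34930, n = 10), and the changes were 1.01 ± 0.48 for this probe, 0.78 ± 0.42 for Hba-a2_29332 and 1.11 ± 0.48 for Hba-a1_29333 (edgeR adjusted p = 0.0714 for the last, the smallest of the 3). At 50 ppm Hba-a1_84120 changed by 1.26 ± 0.48, which rested on 1 heart: animal 304 had 162430 CPM, and the other 4 had 15526, 16281, 17711 and 27734 CPM. Without that library the change was -0.05. The lung of the same animal had 96060 CPM, its kidney 13801 and its liver 3675, which lie within the ranges of the controls.

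The isomers could be compared at 1 and 10 ppm, the concentrations they share. Over 28 comparisons of the change with 1,4-DCB minus that with 1,2-DCB none passed by edgeR (smallest adjusted p = 0.649, and 0 with an unadjusted p under 0.05), while 0.321% of all probe tests passed, and 0 to 1.58% in a single contrast. At 10 ppm the difference for Hba-a1_84120 was 0.71 ± 0.68 in liver, 0.19 ± 0.58 in kidney, 0.14 ± 0.70 in heart, -0.17 ± 0.55 in lung and -0.48 ± 0.63 in ovary. The 95% interval ran from -1.26 to 0.92 in lung and from -0.65 to 2.07 in liver, so differences within those bounds remain possible. The control animals of the isomers did not differ past the threshold in any of 14 comparisons, with changes from -0.65 to 0.66 and a smallest edgeR adjusted p of 0.236, while 1.98% of all probe tests passed, and 0.363% to 6.16% in a single tissue.

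**Figure D4:**
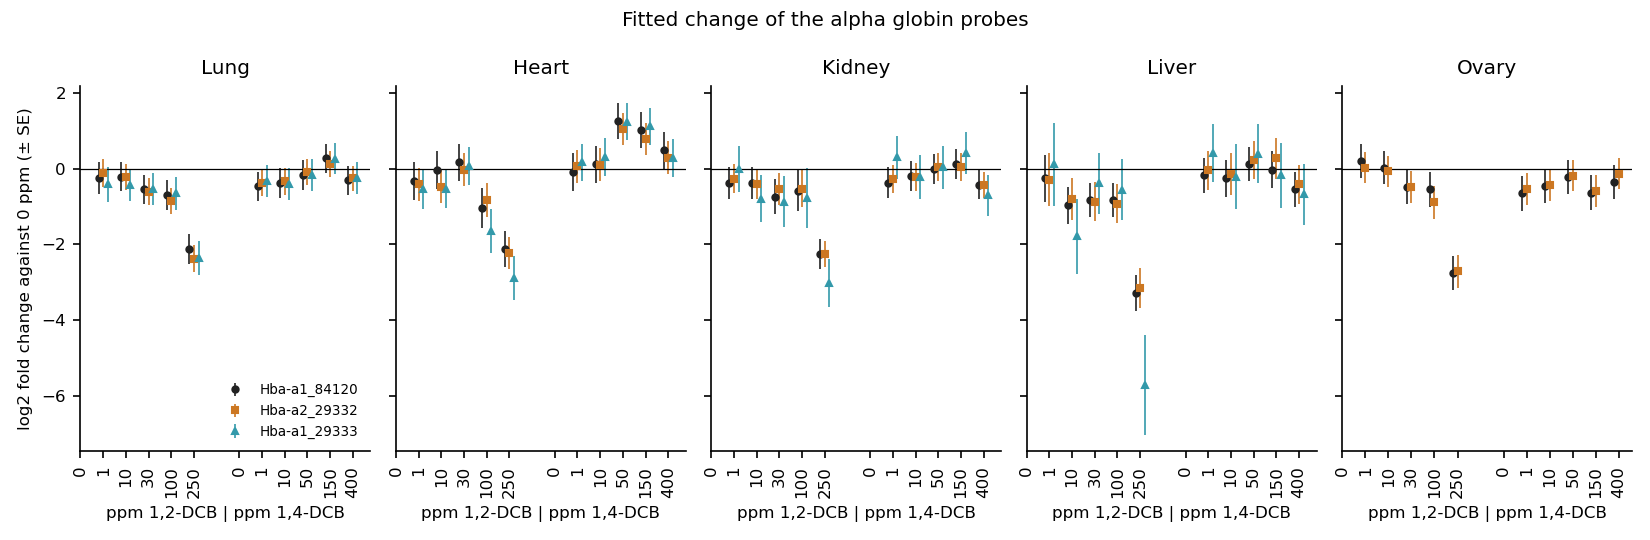
Log2 fold change ± SE against the 0 ppm animals of the same compound for the 3 alpha globin probes, by tissue and concentration; Hba-a1_29333 was not tested in ovary and its liver value at 250 ppm rests on 1 read. Each value at 250 ppm 1,2-DCB is -2.12 or lower, and at the other concentrations values run from -1.79 to 1.26.

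Beta globin, the partner chain, was also lower. Hbb-bs_84118 changed at 250 ppm 1,2-DCB by -2.21 ± 0.40 in lung (edgeR adjusted p = 1.08e-05), -2.41 ± 0.49 in heart (0.000454 by edgeR) and -2.57 ± 0.46 in ovary (0.00013 by edgeR), and by -2.33 ± 0.36 in kidney and -3.00 ± 0.48 in liver. The other beta globin probe tested, Hbb-bs_31701, had a median of 1 count and changed by -3.14 ± 0.51 in lung (edgeR adjusted p = 1.44e-06) and by -2.02 ± 0.74 in heart, which did not pass (edgeR adjusted p = 0.0757). Hbb-bs_84118 was the probe most like alpha globin in each of the 5 tissues, with a Pearson correlation of its deviations from group means with those of the mean of the abundant alpha globin probes of 0.95 in lung, 0.96 in heart, 0.97 in kidney, 0.98 in liver and 0.95 in ovary. Over the 60 group means the correlation was 0.99. These values describe libraries that share depth and scaling. The log2 ratio of Hbb-bs_84118 to Hba-a1_84120 counts in 1,2-DCB controls was 2.02 ± 0.24 (SD, n = 10) in lung and 1.26 ± 0.11 (SD, n = 5) in kidney, and at 250 ppm it was 1.92 ± 0.18 (SD, n = 6) and 1.26 ± 0.19 (SD, n = 6). It was 1.81 ± 0.39 (SD, n = 10) and at 250 ppm 1.60 ± 0.16 (SD, n = 7) in heart, 1.46 ± 0.17 (SD, n = 9) and 1.70 ± 0.19 (SD, n = 6) in liver, and 1.90 ± 0.23 (SD, n = 10) and 2.06 ± 0.16 (SD, n = 7) in ovary. The ratio was thus lower in exposed hearts and higher in exposed livers and ovaries, with ranges that overlapped in each tissue, and these differences were not tested. The embryonic globin probes Hba-x, Hbb-bh1 and Hbb-y had counts in 13, 2 and 13 of 360 libraries, none above 6.

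**Figure D5:**
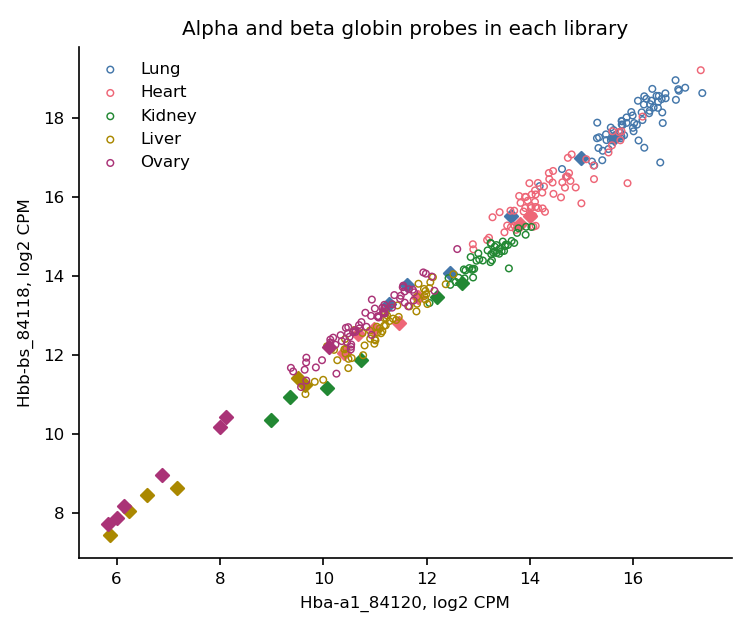
Log2 CPM of Hbb-bs_84118 against that of Hba-a1_84120 in each used library, coloured by tissue, with filled diamonds for animals at 250 ppm 1,2-DCB. The libraries of the 5 tissues lie along a common band. Most animals at 250 ppm lie below the other libraries of their tissue, while in lung, heart, kidney and ovary the highest lie among the others. Within groups the correlation of Hbb-bs_84118 with Hba-a1_84120 alone runs from 0.92 in lung to 0.97 in kidney and ovary.

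Of the listed genes of erythroid cells, 3 are described here: Alas2, the red cell enzyme that starts haem synthesis, Bpgm, which makes the 2,3-bisphosphoglycerate that lowers the oxygen affinity of haemoglobin, and Car1, a carbonic anhydrase. Bpgm and Car1 are made in other cells too. At 250 ppm 1,2-DCB both Alas2 and Bpgm passed as lower in lung and heart, while in ovary Alas2 did not pass and Bpgm passed as higher. Over all probes 15% in lung and 4.81% in heart passed as lower, and in ovary 7.7% as lower and 8.22% as higher. The median change over all probes in these 3 tissues was -0.02, -0.00 and -0.03.

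Alas2 lay between 7.76 and 20.4 CPM in 10 control lungs and between 0.604 and 8.89 in 6 exposed ones, a change of -1.85 ± 0.41 (edgeR adjusted p = 0.000235). In heart it changed by -2.25 ± 0.56 (edgeR adjusted p = 0.00529), and in kidney and liver by -2.00 ± 0.50 and -2.26 ± 0.29. In ovary it had at most 2.22 CPM in controls and changed by -0.92 ± 0.73 (edgeR adjusted p = 0.415). It was the second most similar probe to alpha globin within lung (0.77), heart (0.88) and kidney (0.68), and was not among the first 5 in liver and ovary.

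The order of the exposed animals for Alas2 was that of Hba-a1_84120 in lung and differed from it in the other tissues. In lung, heart and kidney animals 507 and 508 were again the highest, at -0.85 and -0.48 in lung and -0.74 and -0.64 in kidney. In liver the highest was animal 506R at -1.17, which was the third lowest there for Hba-a1_84120, and animal 507 stood at -2.44. In ovary, where Alas2 was low, animals 506R and 505 were the highest, at 0.81 and 0.54, and animals 503 and 508 had 0 CPM. Liver also held more Alas2 for its alpha globin: per 10000 CPM of Hba-a1_84120 control livers had a median of 13.9 CPM of Alas2 (7.26 to 67.1, n = 16), against 1.56 in lung (1.01 to 2.91, n = 20), 1.58 in heart (0.718 to 2.17, n = 20) and 2.02 in kidney (1.07 to 5.23, n = 11). The ranges of liver and of those 3 tissues did not overlap. Ovary had a median of 3.23 (0 to 13.6, n = 20), and its range overlapped that of liver.

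Bpgm changed little but passed in lung, at -0.42 ± 0.14 (edgeR adjusted p = 0.0161), and in heart, at -0.48 ± 0.16 (edgeR adjusted p = 0.0418), and in ovary it rose by 0.36 ± 0.10 (edgeR adjusted p = 0.00805). In kidney and liver Bpgm changed by 0.03 ± 0.06 and -0.11 ± 0.09. It came next after Alas2 in likeness to alpha globin in lung (0.71) and heart (0.80). Car1 was tested in liver, where it changed by -1.20 ± 0.23.

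Of the haem synthesis genes that most cells use, Alas1, which makes the first enzyme, and Ppox, a later one, are described here. Alas1_32020 rose in lung by 0.49 ± 0.12 (edgeR adjusted p = 0.00139), and it changed by 0.24 ± 0.10 in heart and 0.67 ± 0.26 in ovary, which did not pass (edgeR adjusted p = 0.137 and 0.0686). The other Alas1 probe changed by -0.54 ± 0.24 in lung, -0.27 ± 0.38 in heart and 0.52 ± 0.46 in ovary, and Ppox by -0.01 ± 0.11, 0.12 ± 0.14 and -0.14 ± 0.08, none of which passed (edgeR adjusted p from 0.0819 to 0.972). Among the 5 probes for the handling of haemoglobin, haem and iron, 1 passed in these 3 tissues, Slc11a2, an importer of iron, which rose in lung by 0.44 ± 0.07 (edgeR adjusted p = 1.91e-07). That count is near the share over all probes in lung, where 17.6% passed as higher. Haptoglobin (Hp), the plasma protein that binds free haemoglobin, changed by -0.02 ± 0.14 in lung, 1.41 ± 1.09 in heart and 0.15 ± 0.44 in ovary, and by 0.41 ± 0.11 in liver, its main source. Hmox1, which breaks haem down, changed by -0.03 ± 0.23 in lung, 0.31 ± 0.37 in liver and -1.66 ± 0.47 in kidney.

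Endothelial cells line the blood vessels, and some of their markers were lower too. Of 5 endothelial probes tested in lung 3 passed as lower at 250 ppm, with Kdr at -0.41 ± 0.13, Pecam1 at -0.34 ± 0.11 and Tek at -0.29 ± 0.10 (edgeR adjusted p = 0.00787, 0.00989 and 0.0167). In ovary 2 of 4 passed as lower, Pecam1 at -0.58 ± 0.15 and Kdr at -0.40 ± 0.11 (edgeR adjusted p = 0.00477 and 0.00608), and in heart 0 of 5 passed (Kdr at -0.29 ± 0.10, edgeR adjusted p = 0.0655). Over all probes 15%, 7.7% and 4.81% passed as lower in lung, ovary and heart. The 4 endothelial probes had changes of -0.69 to -0.60 in liver and of -0.42 to 0.08 in kidney. Their part in the fall of alpha globin was not tested. Of 7 leukocyte probes 1 passed as lower in lung, near the 15% of all probes there, of 6 in ovary 1 passed in each direction, and of 6 in heart 0. The platelet gene Pf4 changed by 0.05 ± 0.27 in lung, 0.01 ± 0.21 in heart and 0.34 ± 0.21 in ovary (edgeR adjusted p = 0.894, 0.984 and 0.28), and by 3.04 ± 0.45 in liver and -0.25 ± 0.50 in kidney. Itga2b, the other platelet gene measured, changed by -0.79 ± 0.36, -0.69 ± 0.66 and -0.33 ± 0.58 in lung, heart and ovary (edgeR adjusted p = 0.0847, 0.573 and 0.746), and by -0.66 ± 0.32 in liver and 0.20 ± 0.56 in kidney.

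Beyond red cell genes the probes most like alpha globin were less close. Rsad2 (0.62) and Pgrmc1 (0.59) followed in lung, Ube2l6 (0.71) in heart, and Sesn2 (0.51), Bax (0.51) and Stmn1 (0.50) in kidney. In liver a RIKEN clone (0.60), Clu (0.56), Nr2f2 (0.54) and Eif5 (0.54) came after beta globin, and in ovary Iglc1 (0.48), Esr1 (0.43), Inmt (0.42) and Dnajb2 (0.42). Over the 60 group means, which mostly order the tissues, the next were 2 probes of Vegfa (0.88 each), Prkg1 (0.85) and Kdr (0.84).

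In unexposed animals the level in a tissue was related to that in another for 1 of 10 pairs of tissues, lung and ovary. Over control animals with a library in both tissues, centred within each series, the mean log2 CPM of the abundant probes in lung and ovary had a Pearson r of 0.70 and a Spearman rho of 0.66 over 20 animals (permutation p = 0.00132 and 0.00272, adjusted over 10 tissue pairs 0.0132 and 0.0272). Without the 2 animals farthest from the median in lung r was 0.56, and within the series it was 0.72 and 0.68. Lung and kidney had r = 0.77 and rho = 0.78 over 11 animals (permutation p = 0.0117 and 0.0111, adjusted 0.0587 and 0.0553), with 0.54 without the 2 farthest animals. Lung and liver had r = 0.57 and rho = 0.44, and liver and ovary r = 0.54 and rho = 0.57, each over 16 animals (permutation p = 0.028 and 0.106, then 0.0356 and 0.0245, with adjusted p from 0.0817 to 0.191). The other 6 pairs had r from -0.10 to 0.51 and did not pass. Within a series 13 of 15 values were above 0, from -0.38 for heart and liver in the 1,4-DCB series to 0.81 for lung and kidney there.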

How the data were processed

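The values are the authors' deposited counts of reads per TempO-Seq probe, 1 column per library; Bowtie 1.3.1 is named per the submitters' processing notes, while the manifest of the probes, the genome build and any UMI are not given in the sources used here. Values of 59 probes were whole multiples of a factor above 1, tested on the file over probes with counts in at least 100 libraries, and were analysed as deposited. Of 360 libraries, 34 (21 kidney, 11 liver, 2 lung) are marked by the labels as not used, mostly for possible contamination of kidney (16) or for low depth (10), and were brought back in an alternative. Among 824 pairs of libraries of a group, 0 held the same values, and chi-square per degree of freedom was 7.86 or more. The labels number the animals, so each library of a tissue is a separate animal.

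Changes were fitted by edgeR 4.0.16 (R 4.3.3, quasi-likelihood test, TMM factors, filterByExpr by group), all 12 groups of a tissue in 1 fit, and p-values were adjusted by Benjamini-Hochberg over all probes of a contrast, two-sided, at 0.05. Log2 CPM used a prior count of 2. Correlations used 100000 resamples within series, or all permutations under 10 animals. Groups came from the labels. The fit was tested on simulated data. Alternatives were DESeq2 1.42.0, its size factors, no filter, the same compound only, all libraries, factors undone, scaling without globins, a prior count of 0.5, fewer tissues and leaving out animals (65 refits). The mean per animal over 3 tissues is given without its planned permutation test, since it is a score over genes chosen with results known. The members, gene lists and tests were chosen with earlier results of these data known. The text names the alpha globin probes, measured members of the globin, erythroid and haem lists (some are not reported here), some members of the blood and vessel lists, and probes among the 5 most like alpha globin per tissue and over the group means. Sequences are from GENCODE (GRCm38) and, for promoters, RefSeq (GRCm38.p6). Probe and protein sequences were not used here.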

Additional observations from a re-analysis of the deposited data

Results flagged for a closer look

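Among 57 groups of 4 to 10 animals that were checked for a library far from the others, for each of the 2 abundant probes, 4 such values were found, and chance alone gives about 1 in 20. The heart of animal 304 at 50 ppm 1,4-DCB stood highest for both abundant probes, at log2 CPM of 17.31 for Hba-a1_84120 and 11.57 for Hba-a2_29332. The liver of animal 101 at 1 ppm 1,4-DCB had a log2 CPM of 7.30 for Hba-a2_29332, and the ovary of control animal 1 of the 1,4-DCB series had 8.17. The lung of that control animal also had the highest CPM of Hba-a1_84120 among the control lungs, 121029.

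Of the libraries the labels mark as not used, 3 had more Hba-a1_84120 than the highest used control of their tissue when all libraries were scaled together. They were the lung of animal 104 at 1 ppm 1,2-DCB, with 189480 CPM against 119026, the kidney of control animal 1 of the 1,4-DCB series, with 17080 against 15268, and the liver of animal 105 at 1 ppm 1,2-DCB, with 8605 against 6025. The 21 kidney libraries left out ranged from 417 to 17080 CPM, with a median of 8344 against 11375 in used controls.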

How the results depend on the processing

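Of 1310 alternative values for 202 results, 1271 kept their direction and their side of the threshold. Each alternative value for the tested probes at 250 ppm 1,2-DCB in lung, heart and ovary passed, with changes of Hba-a1_84120 from -2.14 to -1.66 in lung, -2.12 to -2.11 in heart and -2.77 to -2.75 in ovary, and from -2.78 to -1.89, -2.61 to -1.95 and -3.71 to -2.58 on leaving out an exposed animal. In liver and kidney its values ran from -3.33 to -2.61 and -2.36 to -2.26, and from -3.84 to -3.09 and -2.81 to -2.04 on leaving out an animal. No paired analysis was possible because animals of different concentrations are different mice, and the numbers shared between the series name different animals.

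Hba-a1_29333 in liver at 250 ppm, which rests on 1 read, moved from -5.70 to -5.04 by DESeq2 and to between -5.49 and -5.41 without an exposed animal; without animal 507, which held that read, no change could be fitted. In heart at 150 ppm 1,4-DCB it passed with the animals of that compound alone, at 1.14 (edgeR adjusted p = 0.0412). With all libraries more tissue pairs passed: lung and kidney at r = 0.84, lung and liver at 0.51, kidney and liver at 0.56, liver and ovary at 0.49 and kidney and ovary, which had been -0.03, at 0.61, while heart and kidney turned to 0.35. With the 1,2-DCB controls alone heart and liver (0.75) and liver and ovary (0.73) passed, and with the 1,4-DCB controls alone lung and ovary (0.68) did not. There heart with kidney turned to 0.16, heart with liver to -0.38, heart with ovary to -0.21 and kidney with ovary to 0.49.

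Other reversals were of changes that did not pass. With all libraries Hba-a1_84120 turned to 0.13 in liver and 0.22 in lung at 1 ppm 1,2-DCB, 0.17 in liver at 150 ppm 1,4-DCB, and -0.03 in kidney and -0.14 in liver for the isomer difference at 1 ppm. Hba-a2_29332 turned to 0.04 in liver at 1 ppm 1,2-DCB, -0.08 in kidney at 50 ppm 1,4-DCB, and 0.07 in kidney and -0.08 in liver for that difference, and Hba-a1_29333 to 0.32 in kidney at 1 ppm 1,2-DCB and -0.43 in liver for the difference; with 1 compound alone the kidney value was 0.00. Without animal 501 the heart at 400 ppm 1,4-DCB turned to -0.30, -0.21 and -0.31 for Hba-a1_84120, Hba-a2_29332 and Hba-a1_29333, with highest values of 0.67 and 0.46 for the first and second without animal 504. Hba-a2_29332 in ovary at 400 ppm ran from -0.32 without animal 504 to 0.11 without animal 503. Leaving out the animals that stood apart was chosen after seeing the data: without animal 304 the heart at 50 ppm 1,4-DCB had -0.05, 0.10 and 0.49 for the 3 probes, without animal 101 Hba-a1_29333 in liver at 1 ppm turned to -0.06, and without control animal 1 Hba-a2_29332 in ovary turned to 0.14 at 50 and 0.19 at 400 ppm. The cause of these differences was not tested, beyond the libraries named. The reads behind Hba-a1_29333, with a median of 6.5 per control liver and 2.5 per control ovary, limit what it can show.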
